A study of Ovis aries with 16 samples.

Results

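The 8 underfed sheep of a feeding study were compared with each other, the 4 with the heavier testes against the 4 with the lighter testes. They were adult Merino male sheep on the low diet, designed for a loss of 10% in body mass over 65 days, and they make up 8 of the 16 sheep sequenced. The other 8 sheep were on the high diet, designed for a gain of the same size, and serve here only as a second place to look at the same contrast. Each library was made from 1 sheep, from pooled pieces of the top, middle and bottom of the right testis, and therefore holds every cell type of the organ.

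The sets were chosen by testis weight, which is given as a description only and was not tested. In the heavier set, the low diet sheep with replicate numbers 8, 1, 4 and 7 (L8, L1, L4 and L7) had testes of 335.5, 234.5, 177 and 165.2 g. In the lighter set, sheep L5, L6, L3 and L2 had testes of 156.1, 142.7, 109.9 and 100.7 g. The sheep just inside and just outside the boundary, L7 and L5, were 165.2 and 156.1 g, whereas L8 stood far above all others, so the sets are a cut through a continuous range. Lists of 4 values are given in this order of the sheep, from the heaviest testis to the lightest within each set.

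The testis makes sperm in seminiferous tubules. Spermatogonia divide by mitosis, enter meiosis as spermatocytes, and then become spermatids, which build an acrosome and a tail. Sertoli cells nurse the germ cells inside the tubule, peritubular muscle-like cells and a basement membrane enclose it, and Leydig cells between the tubules make testosterone. Testis mass depends largely on the tubules, and in rams it falls when feed is short. In whole tissue, fewer cells of a type and less RNA per cell cannot be told apart, and this holds for every value below.

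The values were CPM (reads on a gene over all counted reads, scaled to a common library size), from 7646547 to 14690953 reads per underfed sheep. A total of 11579 of 25197 genes reached the filter, a CPM above 5 in 4 or more of these 8 sheep, and 1750 of these had a gene symbol. Only 4 genes passed that filter through the libraries of 1 set alone. No difference between the sets was detected in total reads (exact permutation p = 0.543, two-sided, 70 assignments, where the smallest possible p is 0.0286) or in genes with CPM above 1, which were 14429 ± 438 in the heavier and 14695 ± 82.5 in the lighter set (SD, n = 4 sheep each, exact permutation p = 0.314). The 10 most abundant features took 11.5% of reads in L7 and 11.2% in L6, against 4.26 to 6.06% in the other 6 sheep, so each set held 1 such library. Of the markers with an identifier here, all those of meiotic cells, spermatids, Sertoli cells, muscle-like cells, endothelium and leukocytes passed the filter. So did 1750 of all 1761 genes with a symbol, which came from the study's own tables of these sheep. Passing is therefore no check of the cell types present. Of the Leydig cell list, only 2 of 11 genes had an identifier here.

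No gene passed the test between underfed sheep with heavier and lighter testes. With limma on log2(CPM + 1) after TMM scaling, 0 of 11579 genes (0.0%) reached an adjusted p under 0.1 with a ratio of mean CPM above 1.5, and the smallest adjusted p was 0.99997. At an unadjusted p under 0.05 there were 53 genes (0.458%), of which 12 (0.104%) were higher and 41 (0.354%) lower in the heavier set. Tests on the recovered reads also made 0 calls, with 64 genes at an unadjusted p under 0.05 by edgeR's quasi-likelihood test and 118 by DESeq2. The 4 TMM-scaled values of one set all lay above the 4 of the other in 96 genes (0.829%), 30 (0.259%) higher and 66 (0.57%) lower in the heavier set. A gene without any difference has a chance of 0.05 for an unadjusted p under 0.05 and of 0.0286 for no overlap. Both shares, 0.458% and 0.829%, were lower than that.

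The differences were small for most genes, and their intervals were wide. Single sheep weighed heavily: leaving out 1 sheep moved the difference of 56 of the 66 genes fixed for description by over 1.5 times, 42 of them without L1. The median log2 difference (heavier minus lighter, here and below) was 0.02, and the middle 95% of genes lay between -0.53 and 0.51. Scaling by library totals in place of TMM factors moved the median to -0.09 and changed the sign of DDX4, CYP51A1, FOXO3 and CFLAR, all described below. The 95% interval of a gene reached 0.76 on the log2 scale to either side at the median. It lay inside -1 to 1 for 6542 genes (56.5%), so for these a change of 2-fold or more was outside the interval, and for the other genes it was not.

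The spread within the heavier set was as large as anything between the sets. The SD of log2 values was 0.57 among the heavier and 0.35 among the lighter testes at the median gene, and it was larger among the heavier for 8912 genes (77.0%). Between pairs of sheep, the root mean square log2 difference over all genes tested ran from 0.50 to 1.15 within the heavier set (median 0.97, 6 pairs), from 0.43 to 0.85 within the lighter set (0.59, 6 pairs) and from 0.58 to 1.12 across the sets (0.67, 16 pairs). The middle pair across the sets was thus closer than the middle pair within the heavier set. Well-fed sheep split by weight in the same manner had median SDs of 0.53 and 0.40.

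The main axis of variation did not separate the sets. The first and second principal components carried 47.0% and 25.9% of the variance. Scores on the first were 43.3, -47.2, 44.4 and -55.0 in the heavier set, and -1.40, 46.7, -12.9 and -17.7 in the lighter set. L1 and L7 therefore stood at one end and L8, L4 and L6 at the other, with both ends holding heavier testes and the heaviest and second heaviest testes apart by almost the whole range. No difference between the sets was detected on the first (exact permutation p = 0.943) or the second component (exact permutation p = 0.771).

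**Figure D1:**
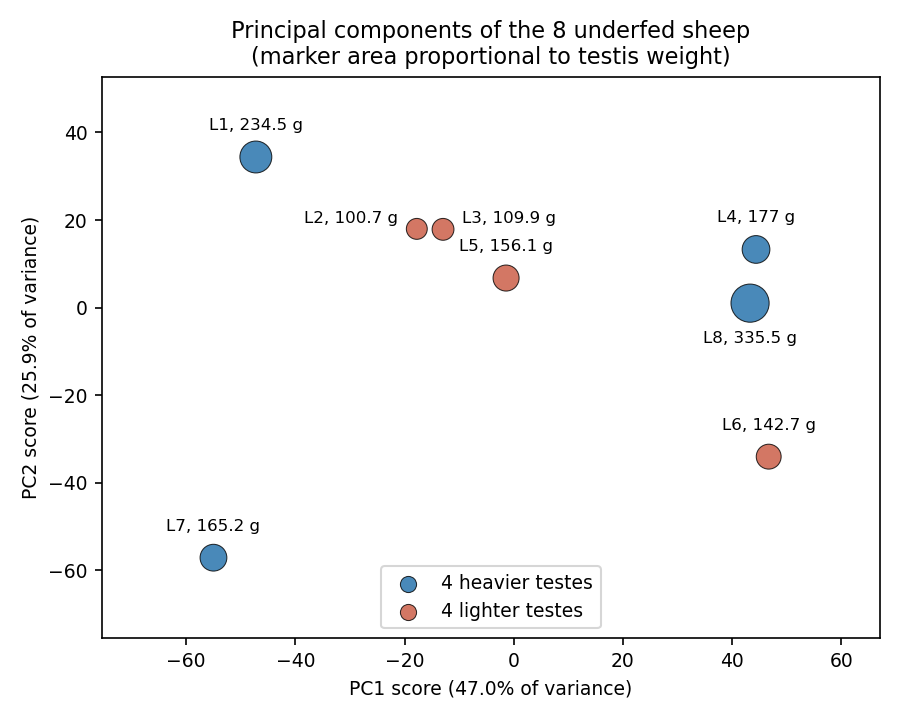
Scores of the 8 underfed sheep on the first (x) and second (y) principal component of log2(CPM + 1), without units, with marker area proportional to testis weight in g. The 4 heavier testes (blue) lie at both ends of the first component, from -55.0 to 44.4, and 3 of the 4 lighter testes (red) lie between -17.7 and -1.40.

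Genes of meiotic and later germ cell lists correlated negatively with this axis, and most genes of several matrix, adhesion and signalling lists positively. The correlation of a gene with the first component over the 8 libraries is given as a description, because the component was built from the same genes. The list members were also limited to genes with a symbol. These came from tables of genes that differ between diets or have predicted miRNA sites, so counts of shared signs are not from a random sample. All 26 meiosis genes, all 20 spermatid and acrosome genes, all 40 sperm tail and cilium genes and all 38 mitosis and replication genes had a negative correlation, with medians of -0.32, -0.84, -0.62 and -0.62. In contrast, 22 of 23 basement membrane and matrix genes, 23 of 27 adhesion and cytoskeleton genes, 12 of 13 insulin and IGF signalling genes and 6 of 6 phagocytosis receptors had a positive one, with medians of 0.64, 0.61, 0.84 and 0.67. Cell type lists were not all alike: 8 of 10 smooth muscle, 5 of 8 Sertoli, 3 of 5 endothelial, 3 of 6 leukocyte and 0 of 2 Leydig genes were positive (medians 0.53, 0.28, 0.79, -0.35 and -0.56), and of the 2 spermatogonia genes TAF4B was positive at 0.67 and DDX4 negative at -0.73. Over all genes tested the median was -0.10, and 5349 of 11579 were positive.

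The level of each list in each sheep (the mean over its genes of the log2 deviation from the 8-sheep mean) showed which animals these were. Meiosis genes deviated by -0.14, 1.00, -0.08 and -0.81 in the heavier set and by 0.40, -1.09, 0.43 and 0.28 in the lighter set. Sheep L1, with the second heaviest testes, had the highest level and L6 the lowest, and L7 was low as well. Spermatid and acrosome genes deviated by -0.29, 1.03, -0.54 and 0.23 in the heavier set and by 0.29, -1.20, 0.28 and 0.19 in the lighter set. Here L7 was above the 8-sheep mean, so L7 was low in meiosis genes but not in spermatid genes. L7 was also below the mean in the tail (-0.21) and mitosis (-0.305) lists, though it scored at the same end of the first component as L1. The heaviest testis, L8, was slightly below the mean in both lists.

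**Figure D2:**
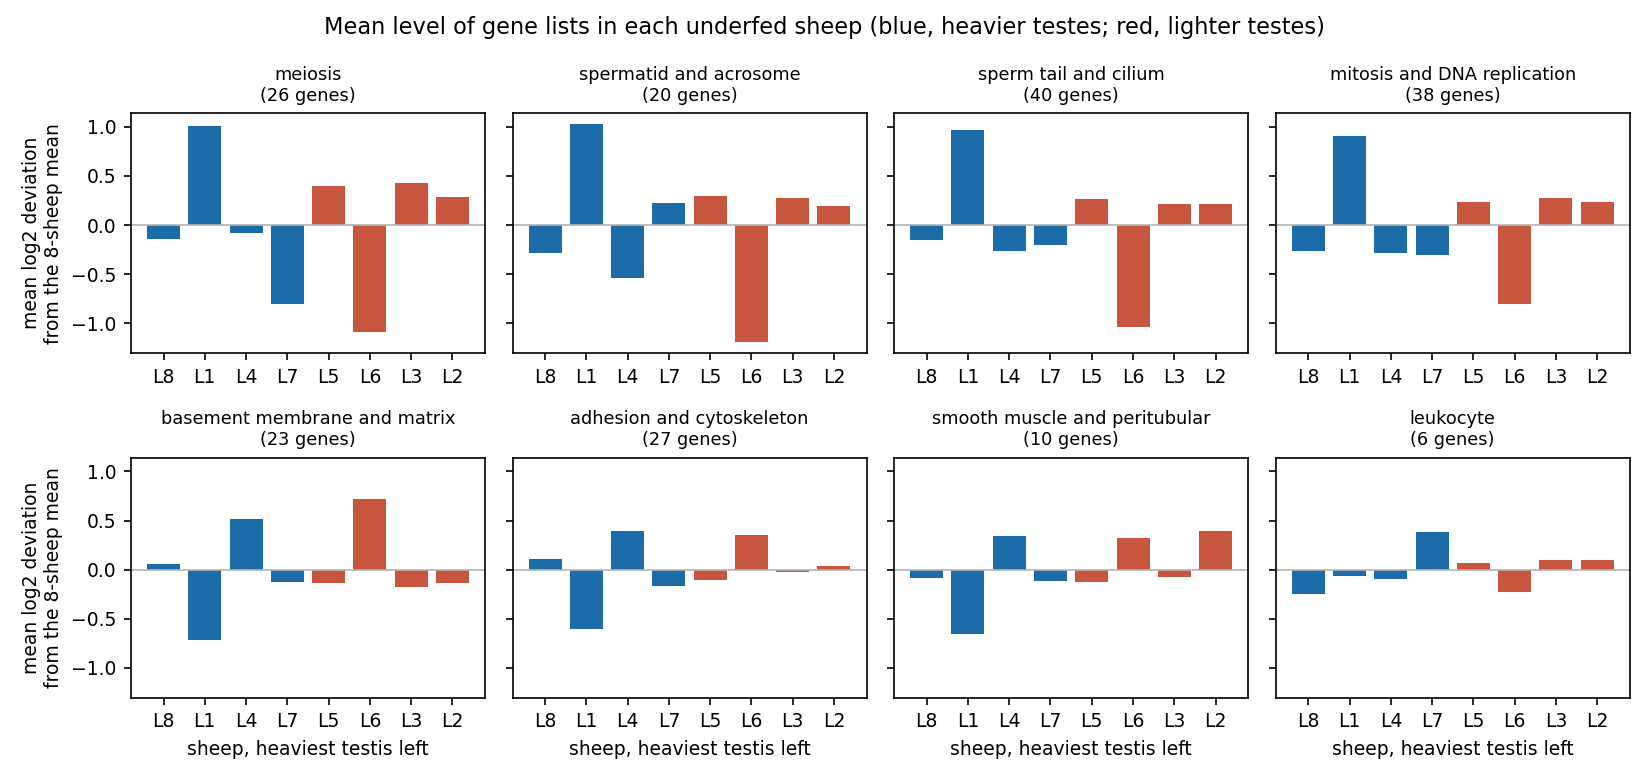
Mean log2 deviation of 8 gene lists from the 8-sheep mean (y) in each underfed sheep (x, ordered from heavier to lighter testes), 1 bar per sheep, blue for heavier and red for lighter testes. L1 is highest and L6 lowest in the meiosis, spermatid, tail and mitosis lists, L1 is lowest in the matrix, adhesion and muscle lists, and the bars of the sets overlap in every panel.

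Of the 10 genes listed for spermatogonia only DDX4 and TAF4B had an identifier here, and neither passed the test. DDX4, the germ cell RNA helicase known as VASA, was at 483, 834, 418 and 419 CPM in the heavier set and at 553, 322, 635 and 629 CPM in the lighter set. L1 was highest and L6 lowest, and the means were 538 ± 199 and 535 ± 147 CPM (SD, n = 4 each). Its log2 difference was 0.11 with a 95% interval from -0.68 to 0.91. TAF4B, a transcription factor subunit of the germ line, had means of 36.0 ± 13.2 and 33.3 ± 5.66 CPM and a log2 difference of 0.17.

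Meiosis genes were split in direction. Of 26 tested, 0 were called and 0 reached an unadjusted p under 0.05, 11 were above and 15 below a difference of 0, and the median was -0.03, against 0.02 over all genes tested, of which 6114 were above 0 and 5465 below. Their summed level ran from 2311 to 5981 CPM in the heavier and from 2008 to 4981 CPM in the lighter set. BOLL, an RNA-binding protein needed for meiotic progression, was at 248, 445, 165 and 324 CPM in the heavier set and at 276, 186, 244 and 279 CPM in the lighter set, a log2 difference of 0.30 with an interval from -0.51 to 1.12. MCMDC2, which acts in meiotic recombination, was at 3.90, 8.69, 5.54 and 0.466 CPM against 6.53, 1.97, 9.55 and 6.26 CPM. L7 and L6, one in each set, had the lowest MCMDC2, and its interval ran from -1.62 to 0.82.

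Genes of spermatids lay a little above 0 almost without exception, yet none passed the test. In the spermatid and acrosome list 19 of 20 differences were above 0, with a median of 0.19, and 0 genes reached an unadjusted p under 0.05. The genes of this list moved together within a sheep, so the count of 19 stands on 8 animals and not on 20 genes, and the median was -0.05 without L1 and -0.13 without L6, against 0.12 to 0.44 without any other sheep. Their summed level was 5172 to 11236 CPM in the heavier set and 3097 to 8755 CPM in the lighter set. GALNTL5, a glycosyltransferase family member of maturing spermatids, was at 367, 758, 297 and 716 CPM in the heavier set and at 517, 238, 471 and 526 CPM in the lighter set. L1 and L7 were above every lighter testis, L8 and L4 were below 3 of them, and the log2 difference was 0.35 with an interval from -0.59 to 1.30. EQTN, an acrosomal membrane protein, had means of 149 ± 60.1 and 111 ± 40.1 CPM and a log2 difference of 0.53, the largest of its list, with an interval from -0.39 to 1.45.

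The sperm tail and cilium list behaved alike, with 35 of 40 differences above 0, a median of 0.17 and 0 genes at an unadjusted p under 0.05. Its median was -0.07 without L1 and -0.12 without L6. SPATA4, a testis protein linked to spermatogenesis, was at 144, 231, 123 and 225 CPM in the heavier set and at 161, 82.8, 163 and 177 CPM in the lighter set, a log2 difference of 0.43 with an interval from -0.37 to 1.23. As with GALNTL5, L1 and L7 were highest and L6 was lowest. SPATA6, which is needed to join the sperm head and tail, had means of 1036 ± 239 and 911 ± 236 CPM and a log2 difference of 0.32. SPATA17, a calmodulin-binding protein of the testis, had 162 ± 51.1 and 134 ± 37.1 CPM and a difference of 0.38.

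Isozymes that germ cells use in place of the common forms were represented by 4 genes. GK2, a testis glycerol kinase, was at 424, 874, 401 and 737 CPM in the heavier set and at 713, 318, 656 and 662 CPM in the lighter set, a log2 difference of 0.15 with an interval from -0.74 to 1.05. PDHA2, the testis form of a pyruvate dehydrogenase subunit, had means of 279 ± 132 and 240 ± 79.5 CPM and a difference of 0.25. Of the 4 isozyme genes 3 were above 0, with a median of 0.11, and 0 reached an unadjusted p under 0.05. The median was -0.07 without L1 or without L6, -0.03 without L7 and -0.0048 on library totals.

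Mitosis and replication genes did not separate the sets either. Of 38 tested, 26 were above 0 and the median was 0.04, which became -0.19 without L1, -0.17 without L6 and -0.07 on library totals. CENPW, a kinetochore protein, was at 26.8, 45.0, 24.4 and 64.5 CPM in the heavier set and at 38.4, 18.8, 44.2 and 34.6 CPM in the lighter set, with a log2 difference of 0.31 and an interval from -0.58 to 1.20. PRIM1, the catalytic subunit of DNA primase, was lower on average in the heavier set, 13.8 ± 5.85 against 19.0 ± 5.43 CPM, with a difference of -0.37 and an interval from -1.15 to 0.41.

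Somatic cell lists mostly lay below 0, and none of their genes was called. Differences were below 0 in 9 of 10 smooth muscle and peritubular genes (median -0.28), 5 of 5 endothelial genes (-0.28), 4 of 6 leukocyte genes (-0.17), 5 of 8 Sertoli cell genes (-0.07) and 2 of 2 Leydig cell genes (-0.44), and 0 of these genes reached an unadjusted p under 0.05. Without L1, the endothelial median was 0.05 and the smooth muscle median -0.04, and without L6 these were -0.03 and -0.15. The Sertoli median was 0.19 without L1, 0.10 without L8, 0.02 without L3 and 0.01 without L4. The leukocyte median was 0.03 without L1. The Leydig median ran from -0.79 to -0.14 as each sheep was left out. The summed muscle-like list was 437 to 1333 CPM in the heavier and 765 to 1164 CPM in the lighter set, and the endothelial list 24.3 to 84.0 and 45.2 to 79.4 CPM. By these sums the heavier set held both the lowest and the highest sheep, but by the mean log2 deviation the highest were the lighter L2 for the muscle-like list (0.39, against 0.34 in L4) and the lighter L6 for the endothelial list (0.46, against 0.39 in L4). The part of cell make-up in any difference between the sets was not tested.

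Among single somatic genes the sets also overlapped. CALD1, the actin-binding protein caldesmon of smooth muscle, was at 71.2, 58.4, 144 and 51.9 CPM in the heavier set and at 87.5, 85.6, 129 and 177 CPM in the lighter set, a log2 difference of -0.49 with an interval from -1.22 to 0.23. L4 was apart from the other 3 heavier testes in CALD1, and likewise in PTPRC (the pan-leukocyte marker CD45), where the values were 19.3, 21.1, 53.8 and 23.5 CPM in the heavier set and 36.1, 31.3, 44.1 and 59.4 CPM in the lighter set. The difference of PTPRC was -0.50 with an interval from -1.23 to 0.23. CD28, also of the leukocyte list, lay the other way at 0.70, with an interval from -0.31 to 1.70. DES, the muscle filament desmin, and MCAM, a vascular adhesion molecule, had differences of -0.35 and -0.43. CALCRL, a receptor of endothelial cells for adrenomedullin, had a difference of -0.35.

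Sertoli and Leydig genes differed mainly by single sheep. INHA, the alpha subunit of the hormone inhibin, was at 38.1, 29.2, 82.8 and 33.4 CPM against 40.3, 74.7, 107 and 37.0 CPM, with a difference of -0.37 and an interval from -1.19 to 0.46. L4 was the highest heavier testis, and L3 and L6 were the highest lighter ones. CLDN11, the tight junction protein of the blood-testis barrier, was at 55.0, 90.6, 105 and 370 CPM in the heavier set and at 99.2, 147, 183 and 133 CPM in the lighter set. Its highest value by far was in L7, a library in which the 10 most abundant features took over 11% of reads, and its difference was -0.10 with an interval from -1.20 to 1.00. STAR, which carries cholesterol into mitochondria for steroid synthesis, was at 6.71, 15.9, 8.26 and 8.75 CPM against 24.6, 9.39, 11.8 and 27.8 CPM, a difference of -0.66 with an interval from -1.57 to 0.26. PBR, the mitochondrial translocator protein, was again highest in L7, at 71.9 CPM, and at most 28.2 CPM in the other 7 sheep.

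**Figure D3:**
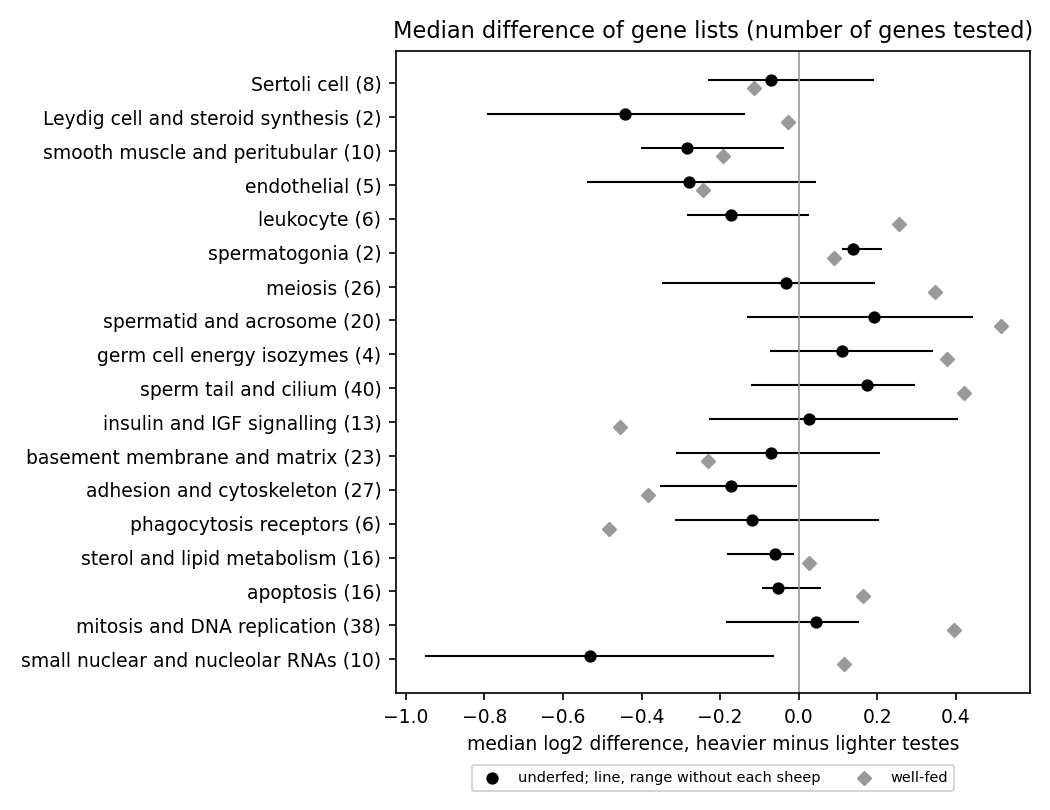
Median log2 difference of each gene list, heavier minus lighter testes (x), for 18 lists (y, number of genes tested in parentheses), black circles for underfed sheep with a line for the range when each sheep is left out in turn, and grey diamonds for well-fed sheep. The underfed medians run from -0.53 for small nuclear and nucleolar RNAs (with NEAT1) to 0.19 for spermatid and acrosome genes, and most ranges cross 0.

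Growth and nutrient signalling genes were not separated by weight among underfed sheep. In the insulin and IGF signalling list, 8 of 13 differences were above 0 and the median was 0.03. As each sheep was left out, this median ran from -0.23 (without L4) to 0.40 (without L1), and it was -0.09 on library totals. SHC1, an adaptor of receptor tyrosine kinases, was at 19.4, 3.51, 29.4 and 8.57 CPM in the heavier set and at 19.6, 26.9, 15.95 and 17.7 CPM in the lighter set. The highest and the lowest SHC1 values were both in the heavier set, and the difference was -0.59 with an interval from -1.60 to 0.41. TBC1D4, a regulator of glucose transporter traffic, had a difference of 0.30. FOXO3, a transcription factor held in check by insulin signalling, was at 76.8, 32.5, 110 and 38.6 CPM against 44.8, 93.3, 48.6 and 63.6 CPM, a difference of 0.04 with an interval from -0.74 to 0.83.

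Matrix and adhesion genes did not pass the test, and the sign of the matrix median rested on single sheep. In the basement membrane and matrix list 16 of 23 differences were below 0 (median -0.07), and in the adhesion and cytoskeleton list 19 of 27 (median -0.17). The matrix median was 0.12 without L1 and 0.21 without L6. As each sheep was left out, the adhesion median stayed below 0, from -0.35 to -0.0048, and was nearest to it without L1. VIM, the intermediate filament vimentin of Sertoli and other somatic cells, was at 156, 97.2, 225 and 156 CPM in the heavier set and at 197, 229, 270 and 290 CPM in the lighter set. L4 alone of the heavier testes exceeded a lighter one, and the difference was -0.56 with an interval from -1.18 to 0.05 (exact permutation p = 0.0571). ACTB, cytoplasmic beta-actin, had means of 59.9 ± 24.3 and 85.5 ± 14.5 CPM and a difference of -0.49. ASPN (asporin) and SPOCK2 (testican), both proteins of the extracellular matrix, had differences of -0.79 and -0.40.

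Receptors by which Sertoli cells clear dying germ cells, and apoptosis genes, varied from sheep to sheep within each set. AXL was at 49.0, 17.4, 89.5 and 34.5 CPM in the heavier set and at 46.7, 74.7, 47.1 and 45.7 CPM in the lighter set, with a log2 difference of -0.25 and an interval from -1.09 to 0.58. TYRO3, of the same receptor family, had means of 98.6 ± 38.7 and 119 ± 47.2 CPM and a difference of -0.16, and L6 had its highest value at 189 CPM. In the apoptosis list 10 of 16 differences were below 0 with a median of -0.05. CASP2 (a caspase) and F2R (a thrombin receptor) had differences of -0.58 (-0.08 without L1) and -0.35 (-0.15 without L7), BCAP31 (an endoplasmic reticulum protein of apoptosis signalling) one of -0.10 and CFLAR (an inhibitor of caspase-8) one of 0.00. MAP3K1, a stress kinase, was at 74.9, 73.7, 147 and 69.7 CPM against 79.6, 126, 106 and 145 CPM, a difference of -0.24. EPHA7, an ephrin receptor, was between 6.62 and 9.31 CPM in all 8 sheep, with a difference of 0.17 and an interval from -0.46 to 0.80. For MAP3K1 and EPHA7 all 8 underfed sheep lay above the highest well-fed sheep (64.4 and 5.87 CPM), whatever their testis weight. The paper named both genes as differing between diets in these same sheep, so they were selected for this. The share of all genes separated by diet in this way was not counted. INHBA, an inhibin beta subunit, had a difference of -0.19.

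Sterol and lipid genes held APOE, the gene with the smallest p of those with a symbol. APOE carries lipid between cells and is made by macrophages and steroid-making cells. It was at 37.7, 19.3, 90.1 and 34.9 CPM in the heavier set and at 88.2, 51.9, 123 and 110 CPM in the lighter set. L8, L1 and L7 were below every lighter testis, and L4 was above 2 of them. The log2 difference was -1.05 ± 0.39 (SE), with an interval from -1.91 to -0.20, an exact permutation p of 0.0571 and an adjusted p of 0.99997 by limma. It was the only 1 of 16 genes of this list at an unadjusted p under 0.05, where the median difference was -0.06. LCAT, which esterifies cholesterol on lipoproteins, had a difference of -0.47, and CYP51A1, the sterol demethylase that is abundant in germ cells, had means of 189 ± 63.5 and 186 ± 42.3 CPM and a difference of 0.10.

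The list of nuclear noncoding RNAs (small nuclear and nucleolar RNAs and segments of NEAT1) had 10 of 10 differences below 0, with a median of -0.53, and 0 reached an unadjusted p under 0.05. The median was -0.06 without L1 and -0.95 without L7. It was -0.51 over the 7 small RNAs and -0.59 over the 3 segments of the long noncoding RNA NEAT1. Their mean deviation was -0.22, -1.38, -0.44 and 1.00 in the heavier set and 0.15, 0.37, 0.42 and 0.10 in the lighter set, so L1 and L7 were the lowest and highest of all sheep. The kit selected polyadenylated RNA, which the 7 small RNAs are not as a rule, and near-identical copies among these may share reads. The segments NEAT1_1 and NEAT1_2 had differences of -0.59 and -0.76. NEAT1_2 was at 15.1, 8.78, 27.7 and 28.4 CPM against 35.1, 29.6, 29.4 and 43.0 CPM, and its sets did not overlap in CPM, while after TMM scaling they did.

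Of 1750 genes with a symbol, 0 (0.0%) were higher and 5 (0.286%) lower in the heavier set at an unadjusted p under 0.05, and all had an adjusted p of 0.99997 by limma. Besides APOE these were SELENBP1, MVP, FGB and MXRA8. SELENBP1, a selenium-binding protein, was at 4.35, 3.86, 12.0 and 3.63 CPM in the heavier set and at 11.4, 9.73, 11.8 and 9.55 CPM in the lighter set. L4 again had the level of the lighter testes, and the log2 difference was -0.78 with an interval from -1.52 to -0.05. MXRA8, a matrix and adhesion protein, was at 8.34, 2.81, 14.98 and 5.59 CPM against 12.7, 13.2, 15.95 and 13.2 CPM, with the same exception and a difference of -0.82 (interval -1.61 to -0.02).

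MVP, the main protein of the vault particle, was at 2.27, 3.07, 15.8 and 10.8 CPM in the heavier set and at 11.2, 13.3, 16.2 and 25.8 CPM in the lighter set, a difference of -1.13 with an interval from -2.20 to -0.06. FGB, the fibrinogen beta chain, was at 3.63, 8.60, 5.90 and 4.38 CPM against 9.86, 11.8, 7.59 and 16.8 CPM, a difference of -0.82 with an interval from -1.61 to -0.04. Only the heavier L1 and the lighter L3 broke its order. The next lower genes were HSP70 (a heat shock protein whose symbol is shared by several identifiers), SMARCD3 (a chromatin remodelling subunit), CHPF (a chondroitin synthesis enzyme) and PHB2 (a prohibitin), with differences of -0.71, -0.69, -0.64 and -0.78 and intervals that all included 0.

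**Figure D4:**
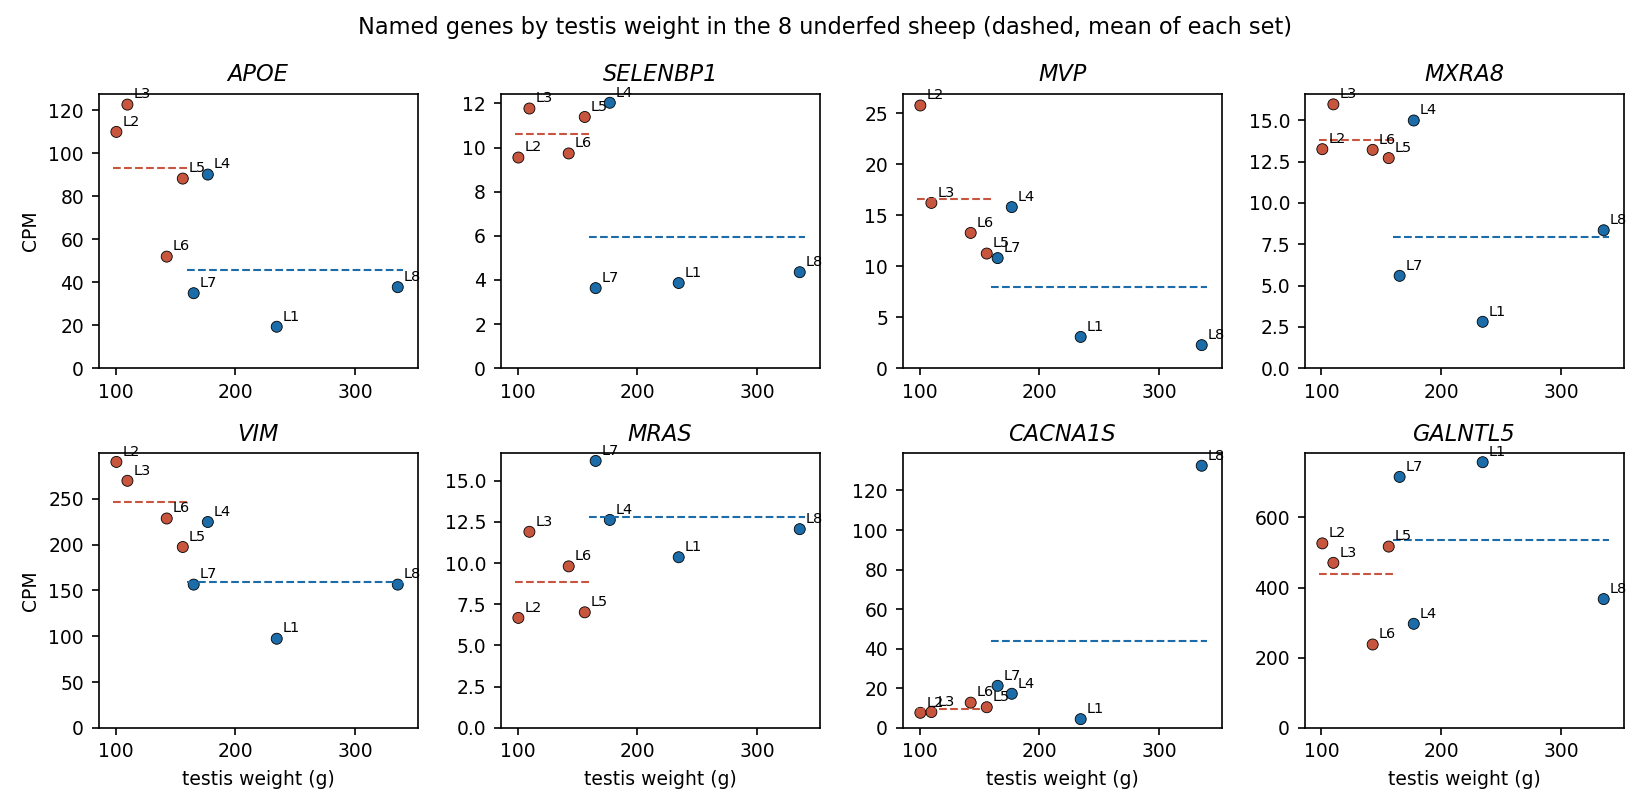
CPM (y, from 0) of 8 named genes against testis weight in g (x) in the 8 underfed sheep, 1 point per sheep, blue for heavier and red for lighter testes, with dashed lines for the set means. For APOE, SELENBP1 and MXRA8 sheep L4 lies with the lighter testes, and for CACNA1S the mean of the heavier set rests on L8 at 132 CPM.

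On the higher side, MRAS, a small GTPase of the RAS family, was at 12.1, 10.4, 12.6 and 16.2 CPM in the heavier set and at 7.01, 9.80, 11.9 and 6.67 CPM in the lighter set. After TMM scaling the sets no longer overlapped, with 11.3 to 18.5 against 6.40 to 11.1, and MRAS was the only gene with a symbol to do so in this direction (0.0571% of 1750). Its log2 difference was 0.61 with an interval from -0.06 to 1.28 and an exact permutation p of 0.0286, the smallest that 4 against 4 can give. In the other direction 6 genes (0.343%) did so: CNP, TRAF7, LZTS2, FBXO9, EPN1 and SLC3A2, which were named after their values were seen and whose differences ran from -0.57 to -0.28. All 7 overlapped when scaled by library totals alone.

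CACNA1S, a calcium channel subunit best known from skeletal muscle, was at 132, 4.39, 17.2 and 21.2 CPM in the heavier set and at 10.4, 12.7, 7.98 and 7.60 CPM in the lighter set. The largest difference of any gene with a symbol, 1.25 with an interval from -0.26 to 2.75, rested on L8, and it was 0.43 without that sheep. PAPD5, a poly(A) polymerase, was at 135, 237, 124 and 134 CPM against 101, 101, 139 and 97.4 CPM, a difference of 0.60 with an interval from -0.09 to 1.29. PDE6C (a phosphodiesterase subunit), HIVEP1 (a zinc finger transcription factor), RERE (a nuclear receptor coregulator) and IGSF3 (an immunoglobulin superfamily protein) had differences of 0.54, 0.69, 0.54 and 0.56. ABCD2 (a peroxisomal fatty acid transporter), ACTR3B (an actin-related protein) and CD28 (a T cell costimulator) had differences of 0.85, 0.50 and 0.70. ABCD2 was 0.43 without L5 and CD28 0.33 without L7. HIVEP1 and RERE were high in L8, L4 and L6, the sheep at the positive end of the first component, and CD28 in L7 and L1 at its negative end.

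Among genes without a symbol, ENSOARG00000003788 and ENSOARG00000002334 had the smallest p on the higher side, with differences of 1.11 and 0.78, and ENSOARG00000023477 and ENSOARG00000023258 on the lower side, with -2.66 and -1.35. ENSOARG00000003788 was at 31.4, 12.2, 23.0 and 19.4 CPM in the heavier set and at 12.1, 10.4, 9.68 and 6.98 CPM in the lighter set. ENSOARG00000023258 was at 23.0, 7.37, 19.2 and 19.8 CPM against 52.2, 70.2, 40.1 and 30.1 CPM. In both genes the sets did not overlap, with an exact permutation p of 0.0286 for each and an adjusted p of 0.99997 by limma.

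ENSOARG00000023477 had 0, 1, 52 and 0 reads in the heavier set and 163, 108, 91 and 87 reads in the lighter set. It was thus at or near 0 in 3 heavier testes and present in L4 and in all lighter ones. Among the 8 well-fed sheep it had 0 reads in 1 library, 3 in another and more than 3 in the other 6, up to 233. Without L4 it was the only gene to be called in any setting, with a log2 difference of -3.30 ± 0.34 (SE) and an adjusted p of 0.0063 by limma. Sheep near 0 thus occurred in both diets, and the fitted difference of such a gene depends on the pseudocount. In well-fed sheep the difference of ENSOARG00000023477 (heavier minus lighter) was -1.70 ± 0.71 (SE), in the same direction as the -2.66 of underfed sheep. Its unadjusted p there was 0.0286 by limma, and no gene of the well-fed contrast reached an adjusted p under 0.1. The interaction adjusted p was 0.999 by limma.

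**Figure D5:**
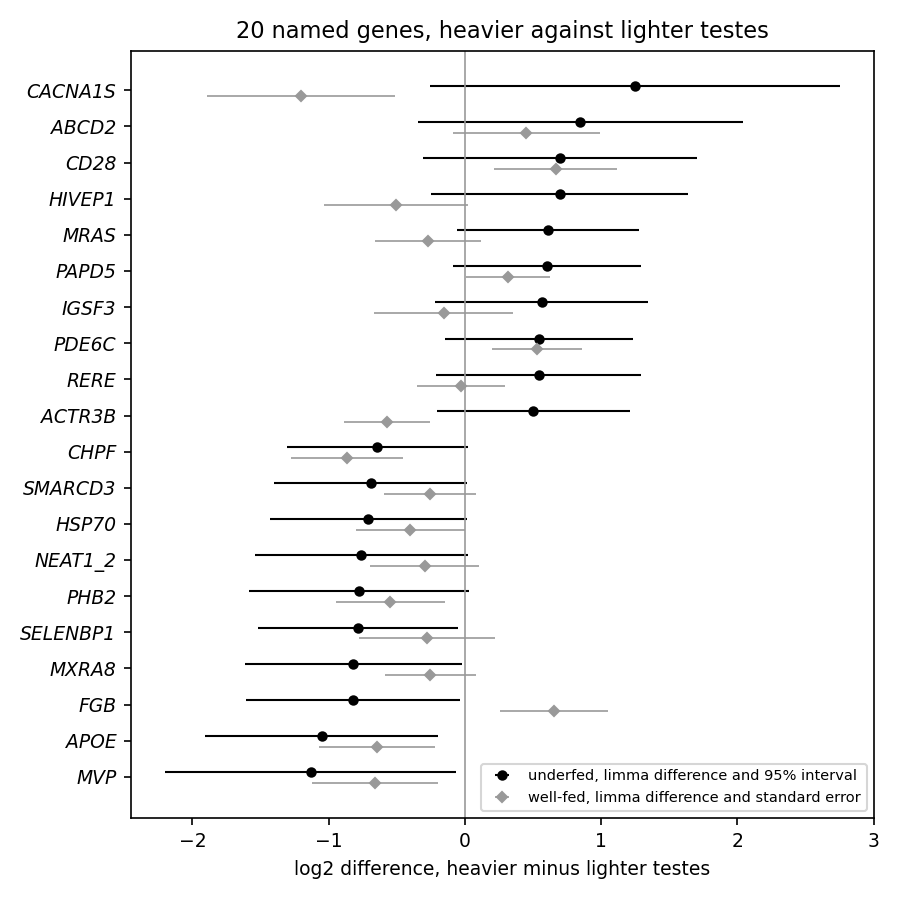
Log2 difference, heavier minus lighter testes (x), for the 20 genes with a symbol and the smallest p in either direction (y), black circles with 95% intervals for underfed sheep and grey diamonds with standard errors for well-fed sheep. Of the 20 underfed intervals only those of APOE, SELENBP1, MVP, FGB and MXRA8 lie wholly on 1 side of 0.

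The same split of the well-fed sheep was fitted with all 16 libraries in 4 groups, on the genes that passed the filter in underfed sheep. It gave 0 genes at an adjusted p under 0.1, with 370 (3.2%) at an unadjusted p under 0.05 and 137 (1.18%) without overlap. The smallest adjusted p of the well-fed contrast was 0.713 by limma. In the same fit the underfed contrast had 95 genes at an unadjusted p under 0.05. Other underfed values here came from the fit of the underfed libraries alone. No difference in the weight contrast between the diets was detected for any gene, as the interaction gave 0 genes (0.0%) at an adjusted p under 0.1 and 81 (0.7%) at an unadjusted p under 0.05. With log2 testis weight in place of the sets, the interaction had 2647 of 11579 genes at an unadjusted p under 0.05, with a smallest adjusted p of 0.195 by limma. The unadjusted count thus depended strongly on whether weight was cut into sets, while no gene reached an adjusted p under 0.1 either way. Medians of the lists stood side by side at 0.19 and 0.52 for spermatid genes, 0.17 and 0.42 for tail genes, -0.03 and 0.35 for meiosis genes, 0.04 and 0.40 for mitosis genes and 0.03 and -0.45 for insulin and IGF signalling genes, underfed first. These differences between diets were not tested as lists. Of the named genes, FGB had -0.82 in underfed and 0.65 in well-fed sheep, CACNA1S 1.25 and -1.20, and ASPN -0.79 and 0.68, with interaction adjusted p-values of 0.999 by limma.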

How the data were processed

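RNA was sequenced from the testes of 8 low diet and 8 high diet sheep (TruSeq Stranded mRNA kit, paired ends). The authors called bases with CASAVA 1.8, aligned reads to Oar_v3.1 with TopHat2 2.0.10, counted them on Ensembl genes with HTSeq and deposited CPM for 25197 genes per sheep. All values (100%) were whole reads within 0.01, so reads were recovered. Diet came from the labels and testis weight from the study's trait table. Each library was taken as a separate sheep, as in the labels, and no low diet pair was a duplicate (chi-square per gene at least 13.8).

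CPM was divided by TMM factors from the 8 low diet libraries (edgeR 4.0.16), a pseudocount of 1 CPM was used, and log2 values were compared with limma 3.58.1 (trend on, R 4.3.3), with Benjamini-Hochberg adjustment. Fold changes on this scale understate those of low genes. CPM per sheep is as deposited. Genes needed CPM above 5 in 4 of 8 libraries, and a call an adjusted p under 0.1 and a ratio of mean CPM above 1.5. The interaction and the well-fed differences used 16 libraries in 4 groups, with TMM factors over these 16 and the genes that passed the filter in low diet sheep. DESeq2 1.42.0 and edgeR were alternatives on reads. Single values were compared by exact permutation tests in scipy 1.17.1. The test was tested on simulated data, in which genes varied independently of each other and with 1 fixed dispersion. It therefore does not show what the test could detect in these sheep.

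Symbols (1761 genes) came from the study's tables of genes that differ between diets or have predicted miRNA sites, and so are not a random sample. Tables of the authors' own fold changes and p-values were not used. The members and lists were chosen with earlier results of these data known. Genes named are the 10 with a symbol and the smallest p in each direction, 2 identifiers without one in each direction, up to 2 genes per list with the smallest p, and genes the paper names. A few of the genes in its text are left out here. No coordinates or sequences were used, because no table used here pairs these identifiers with them.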

Additional observations from a re-analysis of the deposited data

Results flagged for a closer look

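Within each set of 4 sheep, the gap of the highest or lowest sheep to its neighbour was compared with the range of the set, and 21 of 150 such groups had a sheep standing apart. Chance alone gives about 1 in 20 for normally distributed values, but the genes were compared in CPM without logs. Many of these genes were also chosen by their values in the same sheep. The count is therefore a description and no measure of an excess over chance. The groups share sheep and libraries, so they are not independent.

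In the heavier set, L7 stood apart in the share of reads on the most abundant feature (4.85%) and on the 10 most abundant features (11.5%). L7 also stood apart in CLDN11 at 370 CPM and in PBR at 71.9 CPM. Sheep L4 stood apart in PDE6C at 24.5 CPM, SELENBP1 at 12.0 CPM, INHA at 82.8 CPM, PTPRC at 53.8 CPM, MAP3K1 at 147 CPM and ENSOARG00000023477 at 6.13 CPM. In all of these but PDE6C it was the highest of the heavier testes. L1 stood apart in PAPD5 at 237 CPM and DDX4 at 834 CPM, and L8, the heaviest testis, in CACNA1S at 132 CPM.

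In the lighter set, L6 stood apart in the share of the 10 most abundant features (11.2%). It was the lowest in GK2 at 318 CPM, SPATA4 at 82.8 CPM and CALCRL at 2.04 CPM, and the highest in AXL at 74.7 CPM and TYRO3 at 189 CPM. L3 stood apart as the highest in PAPD5 at 139 CPM and in MXRA8 at 15.95 CPM. What set these sheep apart was not tested.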

How the results depend on the processing

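The count of called genes was 0 in all alternatives but 1, the fit without L4, which called ENSOARG00000023477 (counts of 0 to 1 as each sheep was left out). The interaction with diet called 0 genes in each alternative run. No paired analysis was possible because the heavier and lighter sets of one diet share no replicate number. With 4 sheep a set, the median gene's 95% interval reached 0.76 on the log2 scale to either side, at a depth of at least 7646547 reads.

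Genes at an unadjusted p under 0.05 varied. Higher in the heavier set were 12 genes, against 169 with no filter, 26 with total reads as a covariate, 51 for 3 heaviest against 3 lightest, 171 with log2 testis weight, 30 in the fit of 16 libraries, 32 by edgeR, 83 by DESeq2 and 206 without L6 and L7. Lower were 41 genes, against 73 on library totals, 203 with no filter, 19 with CPM above 5 in all 8, 146 for 3 against 3, 188 with log2 weight, 65 with 16 libraries and 198 without L6 and L7. Leaving out each sheep gave 7 to 116 higher and 19 to 200 lower, with the most higher without L4 and the most lower without L7. The interaction had 81 such genes, 126 by edgeR, 2647 with log2 weight (smallest adjusted p 0.195 by limma), 558 without L6 and L7 and 43 to 410 as each sheep was left out. The fit without L6 and L7 was chosen after seeing the data. The cause of these shifts was not tested.

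As each sheep was left out, the difference between sets (heavier minus lighter) ran from -23.3 to 9.82 for the first and -16.4 to 14.1 for the second component score, from -292 to 38.9 for genes at equal depth, from -1.25 to 0.11 percentage points for the most abundant feature, from -2.54 to 0.624 for the 10 most abundant, from -0.148 to 0.00788 for listed small RNAs, and from -438 to -81.7 for genes with CPM above 1, where it was -438 without L4 (exact permutation p = 0.0286). The endothelial median ran from -0.54 to 0.045.

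Of 66 named genes, 49 kept their sign in each alternative that gave them a value (21 for 53 genes, 20 for the 13 genes that were not above 5 CPM in all 8 sheep). Signs turned for PBR (0.34 by edgeR, 0.42 by DESeq2), CLDN11 (0.33 and 0.40) and BCAP31 (0.011 and 0.061). They turned on library totals for DDX4 (-0.0034), CYP51A1 (-0.012), FOXO3 (-0.069) and CFLAR (-0.10), and with log2 weight for GK2 (-0.050), CENPW (-0.035), EPHA7 (-0.016) and CFLAR (-0.31). For 3 against 3, MCMDC2 was 0.23 and CFLAR -0.18. CFLAR was -0.010 with TMM factors over 16 libraries and in the fit of 16, and -0.081 with total reads as a covariate. Without L6 and L7, values were -0.077 for DDX4, -0.16 for GALNTL5, -0.22 for PDHA2, -0.30 for GK2, -0.0076 for SPATA4, -0.27 for CENPW, -0.22 for CYP51A1 and -0.070 for CFLAR.

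As each sheep was left out, ranges that crossed 0 were -0.91 to 0.21 for PBR, -0.11 to 0.29 for DDX4, -0.78 to 0.12 for MCMDC2, -0.040 to 0.60 for PDHA2, -0.072 to 0.40 for GK2, -0.56 to 0.14 for AXL, -0.31 to 0.13 for TYRO3, -0.013 to 0.57 for CENPW, -0.42 to 0.13 for INHBA, -0.067 to 0.36 for CYP51A1, -0.43 to 0.12 for BCAP31, -0.70 to 0.29 for CLDN11, -0.19 to 0.31 for FOXO3 and -0.20 to 0.26 for CFLAR.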
